A study of Mus musculus with 9 samples.

Results

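ADAM proteins are membrane-anchored proteins that carry a disintegrin and a metalloprotease domain. The genes described here are the 34, of 19935 genes measured in whole mouse testis, whose symbol begins with Adam followed by a digit, which leaves out the secreted ADAMTS proteases. Each rested on 1 row of the array table. From textbook knowledge 21 of them are germline members, transcribed mainly in male germ cells, 2 are epididymal members and 11 are somatic members. Testes came from untreated male Swiss albino mice of an inbred line at 3 ages, 8, 16 and 24 days, with 3 biological replicates, 1 array each, at every age (9 arrays in all). The first wave of spermatogenesis runs through them, and the study set 16 against 8 days, 24 against 16 days and 24 against 8 days. Values are on the log2 scale relative to the median of a row over the 9 arrays, so that 0 is the middle array of a gene and levels of different genes cannot be compared. Below, a value of an array is such a relative value and a change is a difference between mean values of 2 ages, given with its standard error from limma.

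An ADAM precursor usually has a prodomain that is removed by proprotein convertases, and members with an intact active site shed the extracellular part of other membrane proteins. Many germline members lack an active metalloprotease and act in adhesion instead. Examples are fertilin, a pair of an alpha subunit (ADAM1) and a beta subunit (ADAM2), and cyritestin (ADAM3). Of these, ADAM3 on mouse sperm is needed for passage into the oviduct and for binding to the egg coat. The somatic sheddases, such as ADAM10 and ADAM17, release growth factors, cytokines and the outer part of Notch receptors in most tissues.

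The testis label was checked against markers of its cells. All 8 round spermatid markers rose at 24 days against 16 days (median change 4.24) and 0 of 8 were called at 16 days against 8 days, where none had an unadjusted p under 0.05 either (limma). Pachytene spermatocyte markers rose at 16 days in 7 of 8 genes. Sertoli cell markers fell at 24 days against 8 days in 5 of 7 genes, Leydig cell markers in 5 of 5, peritubular myoid markers in 6 of 6 and endothelial markers in 5 of 6, against 35.2% of all genes called lower there. Spermatogonia markers fell over the same span in 5 of 7 genes (median change -1.36), and 1, Ddx4, rose. Of the leukocyte markers 4 of 8 were called lower, nearer to the 35.2% of all genes. In a piece of whole testis, fewer cells of a type, less RNA per cell and a smaller share of the tissue's RNA cannot be told apart. Replicate 1 of 8 days and replicate 2 of 16 days stood apart: the median of 1027 olfactory receptor genes was 0.17 in both, against -0.05 to 0.03 in the other 7 arrays.

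All 21 germline members were higher at 24 days than at 16 days, and 7 of them were already higher at 16 days than at 8 days. No germline member was lower in any comparison. Of the somatic members, 4 of 11 fell at 16 days against 8 days, 4 fell at 24 days against 16 days and 7 fell at 24 days against 8 days, with none called higher. The 2 epididymal members were called in no comparison. At 16 days against 8 days, 10.4% of all genes were called higher and 14.3% lower, at an adjusted p under 0.05 over all 19935 genes. The shares were 13.2% higher and 20.1% lower at 24 days against 16 days, and 19.2% higher and 35.2% lower at 24 days against 8 days. With each array's median set to 0, the all-gene counts were 2861 higher and 1927 lower at 24 days against 16 days, in place of 2641 and 4004, and 4389 higher and 5236 lower at 24 days against 8 days, in place of 3825 and 7015; the 21 germline members were called higher in both, and somatic members were called lower in 1 of 11 at 24 days against 16 days and in 6 of 11 at 24 days against 8 days.

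The median change of the 21 germline members was 0.04 at 16 days against 8 days, 1.58 at 24 days against 16 days and 1.89 at 24 days against 8 days. Over all genes the medians were -0.02, -0.16 and -0.18 in the same order. For somatic members they were -0.22, -0.30 and -0.63, which lay -0.20, -0.14 and -0.45 from those of all genes. Every 24-day array was above every 16-day array in all 21 germline members, against 16.5% of all genes, and above every 8-day array in all 21, against 20.5%. At 16 days against 8 days, all arrays lay above in 7 germline members, against 14.7% of genes, and below in 4 somatic members, against 21.5%. All arrays of 24 days lay below those of 16 days in 5 of 11 somatic members, a share near the 39.1% of all genes, and below those of 8 days in 9 of 11, against 45.0%. The members' classes were known when these genes were chosen, so the direction of the germline members is a description of a known group.

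**Figure D1:**
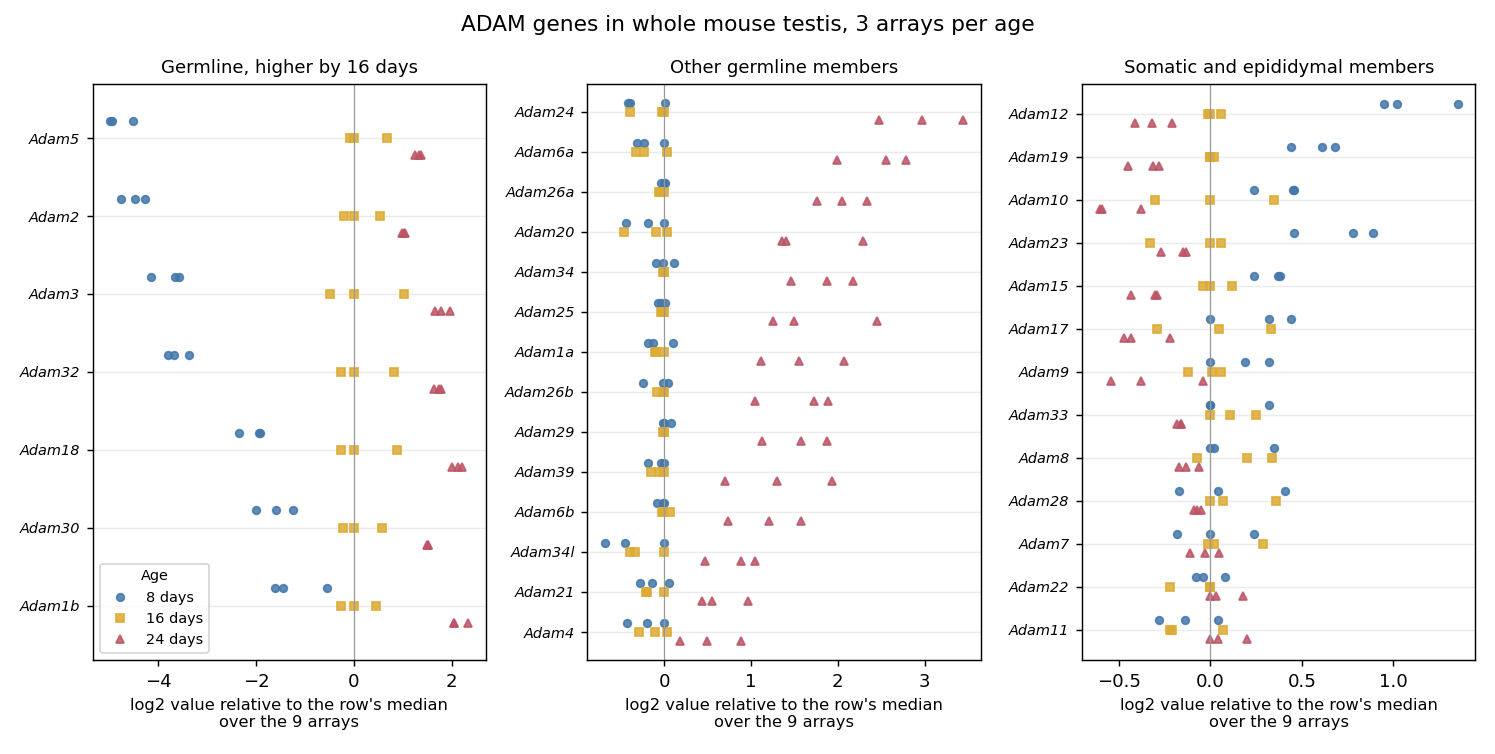
Values of the 34 ADAM genes in each of the 9 arrays (horizontal axis, log2 relative to the row's median; circles 8 days, squares 16 days, triangles 24 days). In the left panel the 8-day circles of 7 germline members lie below the 16-day squares, in the middle panel the circles and squares of the other 14 lie together around 0 with the 24-day triangles to their right, and in the right panel the triangles of the called somatic members lie to the left.

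Fertilin subunits are the best known of the family. Adam2, the beta subunit, had values of -4.26, -4.75 and -4.46 at 8 days, of 0.00, 0.54 and -0.20 at 16 days and of 0.99, 1.05 and 1.03 at 24 days. Its 3 ages did not overlap, and the 3 arrays of 24 days lay within 0.06 of each other. Adam2 was 24.3-fold higher at 16 days than at 8 days (change 4.60 ± 0.18 SE, adjusted p = 1.97e-07) and 1.88-fold higher at 24 days than at 16 days (0.91 ± 0.18, adjusted p = 0.00513), so that 83.5% of its rise between 8 and 24 days, on the log2 scale, lay before 16 days.

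The alpha subunit has 2 genes in the mouse, Adam1a and Adam1b, which lie next to each other on chromosome 5 with no other protein-coding gene between them. They differed in time. Adam1b, whose product joins ADAM2 on the sperm surface, had values of -0.54, -1.61 and -1.45 at 8 days, of 0.00, 0.46 and -0.26 at 16 days and of 2.33, 2.04 and 2.05 at 24 days. It rose 2.40-fold by 16 days (1.26 ± 0.27, adjusted p = 0.00697) and another 4.21-fold at 24 days against 16 days (2.07 ± 0.27). Adam1a, whose product pairs with ADAM2 in the endoplasmic reticulum of developing germ cells, had values of 0.10, -0.19 and -0.13 at 8 days, of -0.10, -0.11 and 0.00 at 16 days and of 2.07, 1.11 and 1.55 at 24 days. The arrays of 8 and 16 days overlapped for Adam1a (change 0.00 ± 0.20) and those of 24 days lay above both (1.65 ± 0.20 at 24 days against 16 days, 3.13-fold). Whether the probes of these closely related genes separate them was not tested.

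The promoters of the Adam1 pair are shown because the genes are neighbours and only Adam1b was called at 16 days. RefSeq sequences (GRCm38.p6) run from 250 bases before to 50 after the transcript start, 5′ to 3′ on the gene's strand, which is the minus strand for both. Capitals mark a MYB hexamer, the site of the pachytene regulator MYBL1 (CAACTG on either strand, its variant CAACGG, or the forms that begin with T, TAACTG as well as the form TAACGG), which stood in 29.4% of 15561 genes' promoters. Adam1b, at chr5:121503386-121503685, has 1 such site and Adam1a, at chr5:121521646-121521945, has 0. The hexamer was also in 4 of 10 matched germline members without a call at 16 days. Whether it bears on the time of the rise was not tested.
Adam1b: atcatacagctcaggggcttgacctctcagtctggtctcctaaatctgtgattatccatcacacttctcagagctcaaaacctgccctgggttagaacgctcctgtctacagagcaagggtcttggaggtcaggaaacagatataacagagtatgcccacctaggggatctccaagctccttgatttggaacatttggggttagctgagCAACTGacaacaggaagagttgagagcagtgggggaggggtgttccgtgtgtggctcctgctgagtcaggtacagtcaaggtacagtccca
Adam1a: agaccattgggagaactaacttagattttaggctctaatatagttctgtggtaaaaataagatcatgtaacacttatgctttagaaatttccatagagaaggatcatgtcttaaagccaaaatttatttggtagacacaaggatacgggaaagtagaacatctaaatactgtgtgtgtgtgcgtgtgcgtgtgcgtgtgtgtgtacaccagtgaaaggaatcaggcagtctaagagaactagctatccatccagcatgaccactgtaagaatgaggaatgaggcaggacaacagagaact

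Sperm surface members include the cyritestin gene Adam3, the tMDC genes Adam5 and Adam18, Adam32, Adam4 and the Adam6 pair. Adam3, Adam5, Adam18 and Adam32 rose by 16 days. Adam5 moved most of all members: its values were -4.94, -4.50 and -4.97 at 8 days, 0.00, 0.67 and -0.07 at 16 days and 1.38, 1.24 and 1.33 at 24 days. It was 32.1-fold higher at 16 days than at 8 days (5.01 ± 0.19, adjusted p = 1.65e-07) and 69.6-fold higher at 24 days than at 8 days (6.12 ± 0.19). No array of one age reached into another.

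Adam3, without which mouse sperm do not pass into the oviduct, had values of -3.56, -4.15 and -3.65 at 8 days, of 0.00, 1.03 and -0.49 at 16 days and of 1.97, 1.66 and 1.78 at 24 days. Its arrays of 16 days spread more widely than those of the other ages, and none reached into another age. It rose 15.7-fold by 16 days (3.97 ± 0.32) and was 48.3-fold higher at 24 days than at 8 days. Adam32, a sperm surface member, rose 13.9-fold by 16 days (3.80 ± 0.23) and was 40.2-fold higher at 24 days than at 8 days.

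Adam18 and Adam30 rose in more equal steps. Adam18 had values of -1.92, -1.94 and -2.35 at 8 days, of 0.00, 0.88 and -0.26 at 16 days and of 2.13, 2.21 and 2.0 at 24 days. Its change was 2.28 ± 0.25 at 16 days against 8 days and 1.91 ± 0.25 at 24 days against 16 days. Adam30, a testis ADAM, changed by 1.72 ± 0.22 and 1.40 ± 0.22 over the same intervals. For these genes 54.4% (Adam18) and 55.1% (Adam30) of the log2 rise lay before 16 days, against 71.0% for Adam3, 71.3% for Adam32, 81.8% for Adam5 and 37.9% for Adam1b.

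The other 14 germline members had changes of -0.03 to 0.13 at 16 days against 8 days, and 0 of the 14 had an unadjusted p under 0.05 there (limma). All 14 rose at 24 days against 16 days, with changes of 0.64 to 3.10. Adam24, testase 1, rose most: its values were 0.01, -0.39 and -0.42 at 8 days, -0.03, 0.00 and -0.40 at 16 days and 3.44, 2.97 and 2.48 at 24 days. It was 8.60-fold higher at 24 days than at 16 days (3.10 ± 0.22, adjusted p = 1.1e-05), while its arrays of 8 and 16 days overlapped.

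Adam6a, a sperm surface member, had values of 0.00, -0.32 and -0.23 at 8 days, of -0.23, 0.03 and -0.33 at 16 days and of 2.78, 2.56 and 1.99 at 24 days. It was 6.13-fold higher at 24 days than at 16 days (2.62 ± 0.19). Adam6b, its neighbour on chromosome 12, rose 2.24-fold over the same interval (1.17 ± 0.17). The remaining testases and testis ADAMs that rose at 24 days against 16 days were, by size, Adam26a (2.09 ± 0.13), Adam20 (1.86 ± 0.24), Adam34 (1.84 ± 0.15), Adam25 (1.75 ± 0.25), Adam26b (1.58 ± 0.19), Adam29 (1.54 ± 0.16), Adam39 (1.38 ± 0.24), Adam34l (1.05 ± 0.20) and Adam21 (0.79 ± 0.15). Testases are named for the testis and are known from the mouse as membrane-bound proteins, many with an intact protease site. The pairs Adam6a and Adam6b, Adam26a and Adam26b, and Adam34 and Adam34l are closely related in sequence, and whether their probes separate them was not tested.

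Adam4, another sperm surface member, had the smallest rise of the germline members. Its values were -0.43, -0.20 and 0.00 at 8 days, 0.03, -0.11 and -0.29 at 16 days and 0.49, 0.88 and 0.18 at 24 days. It was 1.56-fold higher at 24 days than at 16 days (0.64 ± 0.18, adjusted p = 0.0202). That call was lost without replicate 3 of 16 days (change 0.56, adjusted p = 0.0652), without replicate 1 of 24 days (0.65, adjusted p = 0.0574) and without replicate 2 of 24 days (0.46, adjusted p = 0.0603).

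**Figure D2:**
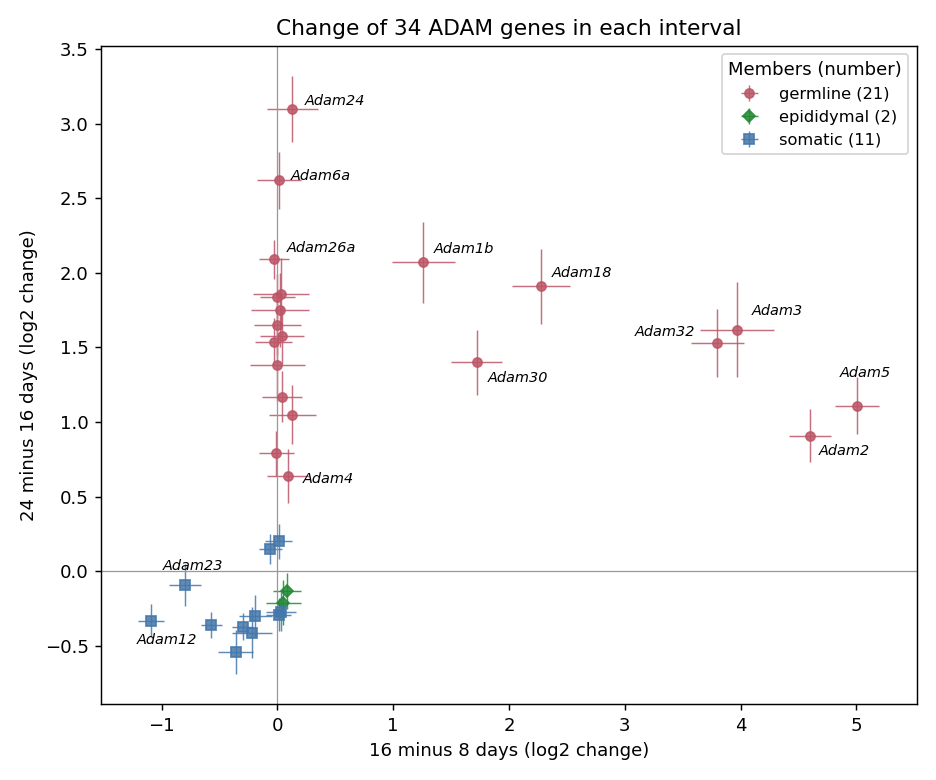
Change of each of the 34 ADAM genes at 16 days against 8 days (horizontal axis, log2) and at 24 days against 16 days (vertical axis, log2); circles are germline, diamonds epididymal and squares somatic members, and bars are ± 1 SE from limma. Of the germline circles, 14 stand in a column near 0 on the horizontal axis and 7 extend to the right as far as Adam5 at 5.01.

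Whether a gene moved differently in the 2 intervals was tested directly, as the change at 24 days against 16 days minus the change at 16 days against 8 days. In 4 members this difference was negative: Adam5 (-3.89), Adam2 (-3.69; adjusted p = 0.000134 for both), Adam32 (-2.27, adjusted p = 0.0087) and Adam3 (-2.35, adjusted p = 0.0394). In 9 it was positive, with Adam24 (2.98), Adam6a (2.61), Adam26a (2.11) and Adam34 (1.84) the highest. Of all genes, 3.06% were called positive and 2.31% negative. The calls of Adam1a, Adam20, Adam25, Adam26b and Adam3 were each lost when at least 1 array was left out, and the number of positive members was 5 without replicate 1 or without replicate 3 of 16 days. For Adam18, Adam30 and Adam1b the difference was -0.37, -0.32 and 0.81 and was not called (adjusted p of 0.716, 0.718 and 0.464).

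Position on chromosome 8 went with the time of the rise. Of the 34 genes, 14 lie there, in 4 groups. Adam18, Adam3, Adam5, Adam32 and the somatic Adam9 follow each other with no other protein-coding gene between them, and all 4 germline genes of that row rose by 16 days while Adam9 did not pass the test (-0.19 ± 0.14). After 76 other genes come Adam24, Adam25, Adam20 and Adam39 as neighbours, after 10 more Adam26b, Adam26a, Adam34l and Adam34, and after another 56 Adam29. These 9 were called higher at 24 days and not at 16 days. Whether probes of neighbouring genes detect each other's transcripts was not tested.

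**Figure D3:**
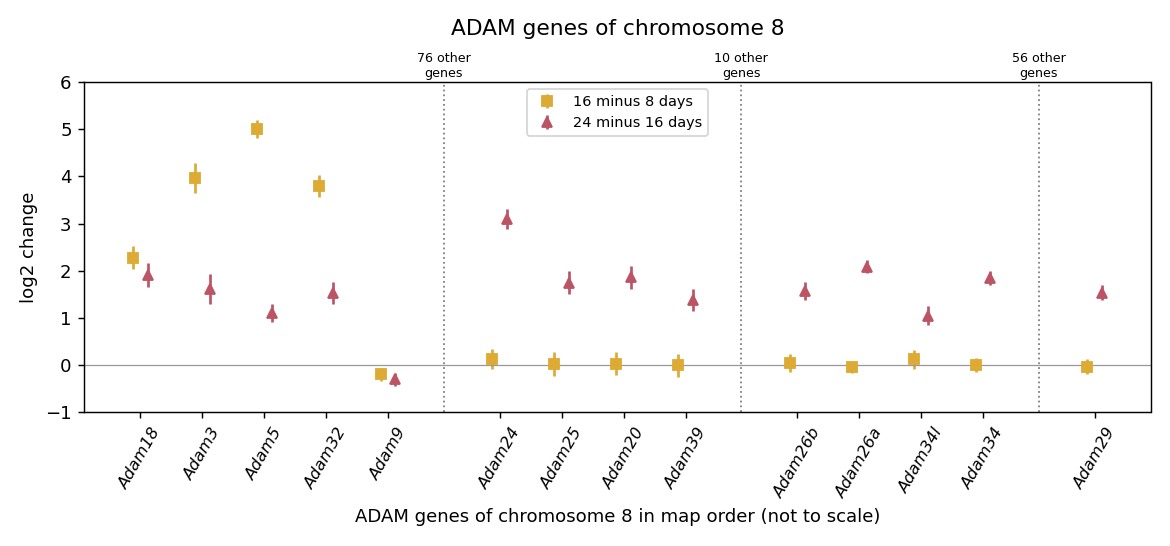
Change at 16 days against 8 days (squares) and at 24 days against 16 days (triangles) of the 14 ADAM genes of chromosome 8 in map order (vertical axis, log2; bars are ± 1 SE; horizontal axis not to scale). Dotted lines stand for 76, 10 and 56 other protein-coding genes; the squares are high in the first 4 genes only and the triangles are above 0 in all but Adam9.

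The genes also differed in length, which the choice of members did not use. In the RefSeq annotation, 5 of the 7 members that rose by 16 days span over 20 kb (median of the 7, 50.5 kb), and Adam1b (3.34 kb) and Adam30 (3.54 kb) are short. Of the other 14 germline members, 11 span under 10 kb (median 5.6 kb), the exceptions being Adam34 (15.3 kb), Adam29 (36.1 kb) and Adam34l (78.5 kb). All 11 somatic members span over 10 kb (median 67.4 kb). These lengths include introns and are given as a description, without a test.

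Arrays of 1 age were not alike in the rising genes. Replicate 2 of 16 days was the highest array of its age, and replicate 3 the lowest, in all 7 members that rose by 16 days (median values 0.67 in replicate 2, 0.00 in replicate 1 and -0.26 in replicate 3). Replicate 2 of 16 days is 1 of the 2 arrays that stood apart, and over all genes it was the highest of its age in 9930 of 19935 and replicate 3 the lowest in 9120. The 8 pachytene markers had medians of 0.30, 0.00 and -0.03 in the same 3 arrays. Replicate 1 of 24 days was the highest array of its age in 13 of the other 14 germline members, and replicate 3 the lowest in 13 (medians 2.0 in replicate 1, 1.45 in replicate 2 and 1.19 in replicate 3). The 8 round spermatid markers had medians of 4.51, 4.22 and 3.56 in those arrays, with replicate 3 lowest in 8 of 8. Over all genes, replicate 1 of 24 days was the highest of its age in 5567 of 19935 and replicate 3 the lowest in 4946. The median SD between replicates at 16 days was 0.41 in the 7 members that rose early and 0.07 in the other 14, against 0.13 over all genes. At 24 days it was 0.07 in those 7 and 0.42 in the other 14, against 0.10 over all genes. The part of cell composition in these differences was not tested.

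Among the somatic members, 8 are sheddases or proteases close to them and 3 are non-catalytic. Adam12, meltrin alpha, known from muscle and mesenchyme, fell most. Its values were 1.02, 1.35 and 0.95 at 8 days, -0.01, 0.00 and 0.06 at 16 days and -0.41, -0.21 and -0.32 at 24 days. The 3 ages did not overlap, and Adam12 was 2.67-fold lower at 24 days than at 8 days (-1.42 ± 0.11, adjusted p = 4.12e-06), most of it by 16 days (-1.09 ± 0.11, 2.13-fold). Its difference between the intervals (0.76) did not pass the test (adjusted p = 0.0525).

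Adam19, meltrin beta, a protease of neuregulin, had values of 0.61, 0.68 and 0.44 at 8 days, of 0.00, 0.00 and 0.02 at 16 days and of -0.28, -0.45 and -0.31 at 24 days. It was 1.90-fold lower at 24 days than at 8 days (-0.92 ± 0.09) and its 3 ages did not overlap. Adam23, a non-catalytic receptor of LGI proteins on neurons, had values of 0.46, 0.89 and 0.78 at 8 days, of 0.00, -0.33 and 0.06 at 16 days and of -0.15, -0.13 and -0.27 at 24 days. It fell by 16 days (-0.80 ± 0.14, adjusted p = 0.00217), and its arrays of 16 and 24 days overlapped (-0.09 ± 0.14).

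Adam10, the sheddase of Notch receptors and cadherins, had values of 0.24, 0.46 and 0.45 at 8 days, of 0.00, -0.30 and 0.35 at 16 days and of -0.59, -0.38 and -0.60 at 24 days. It was 1.87-fold lower at 24 days than at 8 days (-0.91 ± 0.15, adjusted p = 0.00061), with all arrays of 24 days below the others. Adam17, the sheddase of tumour necrosis factor and of ligands of the epidermal growth factor receptor, had values of 0.00, 0.44 and 0.32 at 8 days, of 0.05, -0.29 and 0.33 at 16 days and of -0.43, -0.22 and -0.47 at 24 days. It was 1.55-fold lower at 24 days than at 8 days (-0.63 ± 0.17, adjusted p = 0.00868), and its 16-day arrays overlapped with both other ages.

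Adam15 (metargidin, -0.67 ± 0.09) and Adam9 (meltrin gamma, -0.49 ± 0.14, adjusted p = 0.0117) fell too at 24 days against 8 days. Adam9 lost its call with the arrays centred on their medians (adjusted p = 0.0678). Of the somatic members that were not called at 24 days against 8 days, Adam8, a leukocyte ADAM, changed by -0.24 ± 0.13 (adjusted p = 0.134) and Adam33, a mesenchymal ADAM, by -0.27 ± 0.11 (adjusted p = 0.054). Adam22, the other LGI receptor, changed by 0.09 ± 0.10 and the neuronal Adam11 by 0.20 ± 0.12 (adjusted p = 0.162). Adam11 was called higher under 3 alternatives, among them centred arrays (0.32). Adam33 had 3 blank values, and with blanks left missing it was called lower at 24 days against 8 days (-0.49, adjusted p = 0.0207, limma). It was also called lower there with array weights (-0.18, adjusted p = 0.0226, limma) and in 2 fits with an array left out.

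The smaller somatic changes depended on single arrays. At 24 days against 16 days Adam10 (-0.54), Adam15 (-0.37), Adam19 (-0.36) and Adam12 (-0.33) were called lower. The number called was 0 without replicate 1 of 16 days, 1 without replicate 1 of 24 days, 2 without replicate 3 of 16 days or without replicate 3 of 24 days, and 1, Adam15, with arrays centred. At 24 days against 8 days it was 7 or 8 whichever array was left out, and at 16 days against 8 days 3 or 4. In the latter comparison Adam15 (-0.30, adjusted p = 0.0296, limma) lost its call in 4 fits with an array left out. With arrays centred it was not called there either (adjusted p = 0.0519). Beside the falls at 24 days against 8 days stand the lower spermatogonia, Sertoli, Leydig, myoid and endothelial markers given above. At 24 days against 16 days 6 of 7 spermatogonia, 4 of 7 Sertoli, 3 of 6 myoid and 2 of 6 endothelial markers were called lower, against 20.1% of all genes. Of 5 Leydig markers 1 was lower and 1 higher there (median change 0.48). The part of these cell types in the somatic members' change was not tested.

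Adam7 and Adam28 are made mainly in the epididymis, where ADAM7 is passed to sperm. Adam7 had values of 0.24, -0.18 and 0.00 at 8 days, of 0.02, 0.29 and -0.01 at 16 days and of -0.11, 0.05 and -0.03 at 24 days. Adam28 had values of 0.41, -0.17 and 0.04 at 8 days, of 0.07, 0.36 and 0.00 at 16 days and of -0.07, -0.09 and -0.05 at 24 days. Both were highest in replicate 1 of 8 days and replicate 2 of 16 days, the arrays that stood apart. None of the 3 comparisons called either gene, and neither had an unadjusted p under 0.05 (limma). The 9 epididymis markers measured were called in none as well (with an unadjusted p under 0.05 in 0, 1 and 0 of them in the order 16 against 8, 24 against 16 and 24 against 8 days), and their medians in the same 2 arrays were 0.20 and 0.27, against -0.10 to 0.00 in the others.

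Sperm ADAM proteins are folded, paired and processed by other proteins, many of them known from mouse knockouts. Of 24 genes listed for this 23 were measured, general chaperone and epididymal genes among them. Called higher were 10 at 16 days against 8 days, 10 at 24 against 16 days and 15 at 24 against 8 days. Called lower were 2, 1 and 2. Of all genes 10.4%, 13.2% and 19.2% were called higher in these comparisons. The 10 at 16 days include the general chaperone genes Hspa5 (0.60), Pdia6 (0.45) and Calr (0.36), while Canx and Pdia3 were called in no comparison. Clgn, the chaperone calmegin that pairs the fertilin subunits, had values of -4.21, -3.52 and -3.79 at 8 days, of -0.12, 0.29 and 0.00 at 16 days and of 0.88, 0.85 and 0.77 at 24 days. Its rise, like that of Adam2, lay mostly before 16 days (3.90 ± 0.17, against 0.78 ± 0.17 at 24 days against 16 days).

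Other genes of this list that rose by 16 days included Cmtm2b (3.70 ± 0.28), needed for ADAM3 on sperm, and Tex101 (1.75 ± 0.11), a chaperone of ADAM3. Tmprss12 (3.21 ± 0.11), a serine protease needed for ADAM3 processing, rose too. Genes that rose at 24 days against 16 days without a call at 16 days were Pdilt (3.64 ± 0.20), a testis chaperone of ADAM3, Pmis2 (2.89 ± 0.21), the serine protease genes Prss37 (2.82 ± 0.33) and Prss55 (2.18 ± 0.25), and Calr3 (0.64 ± 0.14), the chaperone calsperin. Pdilt had values of 3.78, 3.79 and 2.97 at 24 days, against -0.14, 0.00 and -0.25 at 16 days. Ace, whose testis form is needed for ADAM3 on sperm and whose somatic form is made from the same gene, fell at 16 days against 8 days (-0.92 ± 0.19) and rose at 24 days against 16 days (1.22 ± 0.19). The epididymal genes Ros1, Ovch2 and Rnase10 were not called. Of 19 listed genes of sperm-egg contact 16 were measured, of which 14 rose and 2 fell at 24 days against 16 days (13.2% and 20.1% of all genes), with Llcfc1 (4.93 ± 0.19), Hyal5 (4.69 ± 0.22), Zp3r (4.19 ± 0.22) and Spam1 (3.38 ± 0.17) the highest.

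**Figure D4:**
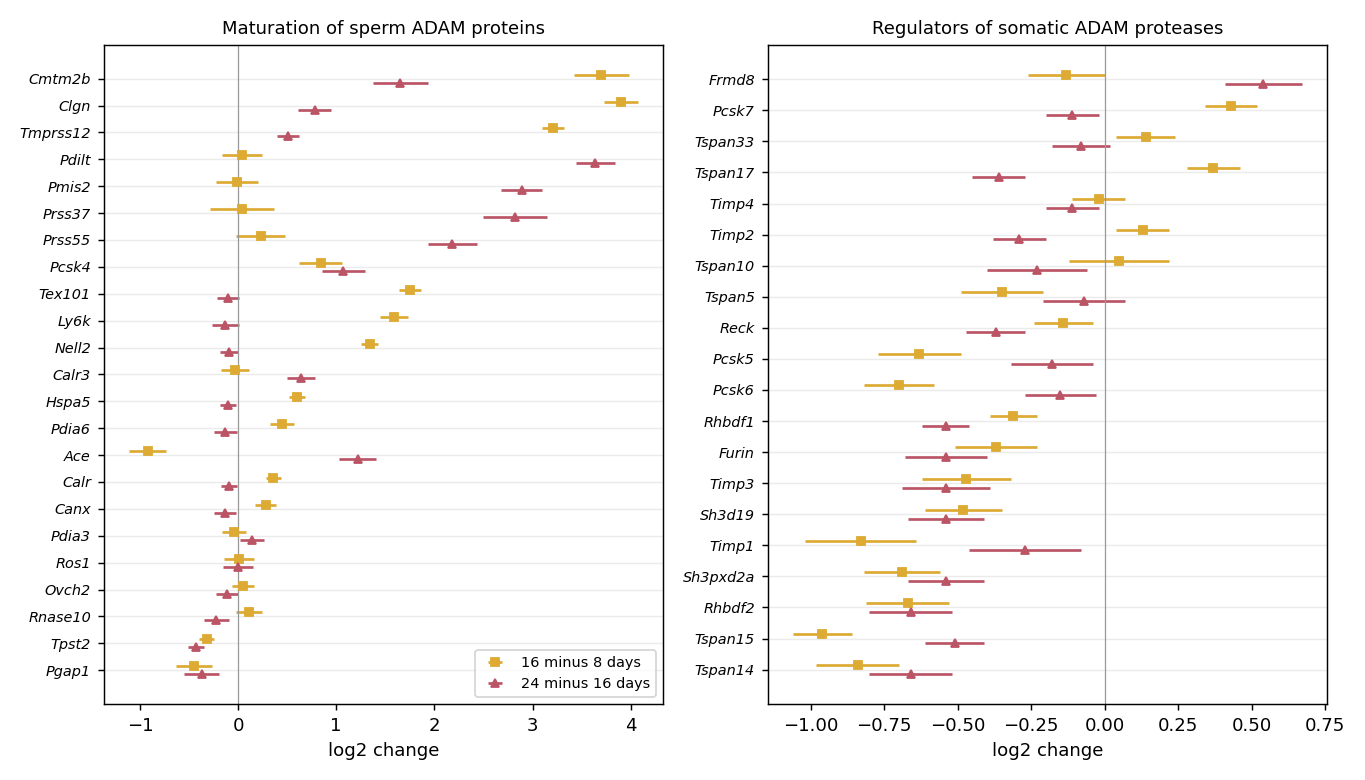
Change at 16 days against 8 days (squares) and at 24 days against 16 days (triangles), on the log2 scale with bars of ± 1 SE. The left panel holds 23 genes listed for the maturation of sperm ADAM proteins, general chaperone and epididymal genes included. The right panel holds 20 regulators of the somatic proteases, and the scales of the panels differ. On the left Clgn, Cmtm2b and Tmprss12 have their squares farthest right and Pdilt its triangle; on the right most marks lie below 0.

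Regulators of ADAM17 and ADAM10 include the iRhoms that carry ADAM17 to the cell surface, the TspanC8 tetraspanins that do so for ADAM10, the TIMP inhibitors and the convertases. Of 20 genes, 13 fell and 2 rose at 24 days against 8 days (35.2% and 19.2% of all genes), with a median change of -0.83 against -0.18 over all genes. Tspan14 (-1.50 ± 0.14), Tspan15 (-1.46 ± 0.10), Rhbdf2, the gene of iRhom2 (-1.33 ± 0.14), and Sh3pxd2a, an adaptor of podosomes (-1.22 ± 0.13), fell most. The 2 that rose were Frmd8 (0.41), a stabiliser of iRhoms, and the convertase gene Pcsk7 (0.31). At 24 days against 16 days 11 fell, against 20.1% of all genes, and 6 with arrays centred, against 1927 of 19935 genes.

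Of 32 measured genes whose proteins are cut by ADAM proteases, 24 fell and 0 rose at 24 days against 8 days (35.2% and 19.2% of all genes), with a median change of -0.73. Igfbp3 (-1.66 ± 0.32), Cdh5 (-1.62 ± 0.15), Efna2 (-1.62 ± 0.14) and Notch2 (-1.56 ± 0.12) fell most, followed by Kitl (-1.56 ± 0.11), the KIT ligand that Sertoli cells show to spermatogonia. At 24 days against 16 days 16 fell, against 20.1% of all genes, and 9 with arrays centred, against 1927 of 19935 genes. Of 8 partners of ADAM22 and ADAM23, 5 fell and 1 rose at 24 days against 8 days (35.2% and 19.2% of all genes). The number that fell was 3 with arrays centred, against 5236 of 19935 genes. Lgi2, the gene of an LGI ligand, fell by 16 days (-0.98 ± 0.15) as Adam23 did, and Cntnap2, a neuronal adhesion gene, was the gene that rose (1.41 ± 0.11). The lists hold genes of many cell types, and 5 of 7 Sertoli markers and 5 of 7 spermatogonia markers fell over the same span.

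Promoters from RefSeq matched 18 of the 34 members, with 20 promoters. The base composition of the classes differed in its median and overlapped in its range: the 11 promoters of germline members had 35.3 to 51.0% G and C (median 39.3%) and the 9 of somatic members 49.3 to 73.3% (median 65.3%), against a median of 57.7% over 19114 promoters of all genes. The testis gene Adam20 (36.7%) and the widely expressed Adam10 (73.3%) are shown for this contrast, at chr8:40793023-40793322 and chr9:70678732-70679031 of GRCm38.p6, both on the plus strand. Capitals mark TGACG, the core of the cAMP response element bound by the spermatid regulator CREM, on either strand, or a MYB hexamer.
Adam20: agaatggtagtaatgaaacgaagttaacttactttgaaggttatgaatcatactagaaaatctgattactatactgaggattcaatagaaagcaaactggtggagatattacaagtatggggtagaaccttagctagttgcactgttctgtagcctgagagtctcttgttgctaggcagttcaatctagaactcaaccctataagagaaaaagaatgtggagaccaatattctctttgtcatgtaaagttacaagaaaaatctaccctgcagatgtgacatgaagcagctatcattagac
Adam10: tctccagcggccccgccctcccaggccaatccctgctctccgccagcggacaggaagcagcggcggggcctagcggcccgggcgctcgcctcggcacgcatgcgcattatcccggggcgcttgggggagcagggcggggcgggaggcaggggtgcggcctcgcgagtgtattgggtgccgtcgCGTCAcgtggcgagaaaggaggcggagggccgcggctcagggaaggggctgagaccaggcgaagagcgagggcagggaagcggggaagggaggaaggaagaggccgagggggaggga

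The TGACG core was in 0 of 11 matched germline members and in 1 of 7 somatic members (Adam10), against 28.0% of all genes with a promoter. The full element TGACGTCA, which contains the core, was in none of the 18 members, against 2.72% of genes. These shares were not matched for base composition, in which germline promoters (median 39.3% G and C) differed from those of all genes (57.7%). A MYB hexamer was in 4 of 10 matched members that rose at 24 days (Adam6a, Adam6b, Adam29 and Adam34l) and in 2 of 7 somatic members (Adam8 and Adam19). These shares were near the 29.4% of all genes with a promoter. The promoters of Adam6a and Adam6b share the stretch around their hexamer and are not separate cases. Those of Adam20 and Adam25 share a long stretch too, and those of Adam26b and Adam34l a shorter one. The shares and the base composition of germline promoters therefore do not rest on separate cases throughout. The hexamer was also in the 1 matched member that rose by 16 days (Adam1b), and 1 promoter gives no share. A match is a run of letters in this window and does not show a bound site, and 6 of the 7 early members had no matched promoter.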

How the data were processed

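Total RNA of whole testes was labelled as biotinylated whole-transcript sense targets and hybridised to Affymetrix arrays, per the labels' protocols. The authors deposited 1 table of 28815 rows by 9 arrays, and its log2 values are relative to each row's median. Log base, background correction, normalization and summarization are not given in the sources used here; base 2 is taken from the size of the values (-6.07 to 6.05). Every row had at least 1 blank (38964 cells), taken as 0 since all row medians are then 0.

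Rows with exactly 1 gene symbol in the platform annotation (21780 of 28815) were averaged per gene, giving 19935 genes. Rows with several symbols (1605) or none (5430) were not tested. Age effects were fitted over all 9 arrays in limma 3.58.1 (R 4.3.3) with 6 residual and 3.82 prior degrees of freedom, 2-sided tests and Benjamini-Hochberg adjustment over all genes; an adjusted p under 0.05 counted as a call. The fit was tried on simulated data for 24 days against 16 days only. It recovered 38% of added changes of 0.5 on the log2 scale, 80% of those of 1 and 98% of those of 2. A change near 0.5 can therefore be missed. The third array of each age had no number in its title and was called replicate 3.

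Same-numbered arrays (replicates 1 and 2) correlated at -0.461 to 0.197 in their deviations from the age means, and other pairs at -0.669 to 0.596. With 2 arrays that stood apart, these values cannot decide whether numbers pair arrays. The main fit used no pairing. The alternatives were blanks left missing, arrays centred on their median, the row with the widest range per gene, array weights, only the ages compared, robust eBayes, a 2-fold minimum, leaving out the 2 arrays high in olfactory receptor genes, the replicate block, and each array left out in turn. No expression level or detection limit can be had from centred values, and precision is limited by the number of arrays. The family, its classes and all gene lists were chosen with earlier results of these data known. Any member could be named. Of each partner list up to 4 genes with the largest called change per comparison were named, with those known to act on a member described. General chaperone genes of the maturation list were named too. Gene names, order, spans and promoters came from RefSeq (GRCm38.p6), where 21689 of the single-symbol rows had a matching gene ID. Protein sequences were not analysed here.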

Additional observations from a re-analysis of the deposited data

Results flagged for a closer look

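Rows that the platform annotation gives to several genes took no part in the comparisons, and 2 of them hold ADAM genes. The row shared by Gm5347, Adam34l, Adam26b, Adam34 and Adam26a had values of 0.00, -0.14 and -0.20 at 8 days, of -0.11, 0.03 and -0.30 at 16 days and of 2.74, 2.58 and 2.14 at 24 days. It was 2.60 higher at 24 days than at 8 days on the log2 scale. The row shared by Gm4787 and Adam4 had values of -0.28, -0.32 and 0.00 at 8 days, of -0.04, 0.16 and -0.18 at 16 days and of 2.38, 2.06 and 1.74 at 24 days, and was 2.26 higher at 24 days than at 8 days. In both rows all arrays of 24 days lay above all others. The change of the Gm4787 and Adam4 row stood beside 0.73 for the row of Adam4 alone, and which gene gave it was not tested.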

How the results depend on the processing

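Of 136 member values (34 genes in 3 comparisons and the difference between intervals), 136 kept direction and side of the threshold under robust eBayes. The number was 130 with arrays centred, 127 with array weights and 126 with blanks left missing. It was 124 without the 2 arrays high in olfactory receptor genes and 118 with the 2-fold minimum, and none reversed. Taking the row of widest range could not change a member's values, since each member rested on 1 row, and so tested nothing about them. The cause of the changes below was not tested. With the 2-fold minimum, all genes called were 761 higher and 193 lower at 16 against 8 days, 1072 and 29 at 24 against 16 days, and 1937 and 1427 at 24 against 8 days, and members (all somatic) called lower were 1, 0 and 1. At 24 against 16 days, members called lower (all somatic) were 1 with arrays centred, 1 with blanks left missing and 0 to 5 with an array left out, and all genes called lower were 1927, 2423 and 1674 to 5196. All genes lower at 16 against 8 days were 1855 to 3099 with an array left out. Members with a positive difference between intervals were 5 with blanks left missing, 4 without the 2 arrays and 5 to 11 with an array left out. A somatic member, Adam11, was called higher (1 gene) at 24 against 16 days without the 2 arrays, and at 24 against 8 days without them, with arrays centred and with array weights. With the replicate block on the 6 numbered arrays, genes called were 1162 higher and 809 lower at 16 against 8 days, 1198 and 96 at 24 against 16 days, and 4571 lower at 24 against 8 days; members called lower at 24 against 16 days were 0, all somatic members included. Under this block 18 of the 21 germline members were called higher at 24 against 16 days, the calls of Adam2 (0.75, adjusted p = 0.12), Adam3 (1.3, adjusted p = 0.0729) and Adam4 (0.73, adjusted p = 0.063) being lost, all 21 were called at 24 against 8 days, and 123 of the 136 member values kept their side. Values relative to a row's median give no signal over background, so that dim and bright members could not be told apart.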
